A study of Homo sapiens with 16 samples.

Results

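The genes described here are 34 genes of protein folding in the endoplasmic reticulum (ER) and of the unfolded protein response, out of 26364 genes in the count tables. They were taken by symbol from a list of genes with these functions: XBP1, 4 other sensors and transcription factors, 9 genes of the Hsp70 and Hsp90 chaperone system, 6 lectins and disulfide isomerases, 8 genes of ER-associated degradation, 4 genes of translocation and export, and 2 others. All 34 had a row in both tables, and all 34 passed the filter on low counts in each cell line. XBP1 is described apart from the chaperones. The list was chosen with earlier results of these data known, so its shares beside those of all genes are descriptive.

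Secreted and membrane proteins fold in the ER with the help of chaperones, lectins and disulfide isomerases, and those that fail to fold are returned to the cytosol and degraded, a route called ER-associated degradation (ERAD). When unfolded proteins accumulate, the sensors IRE1 (gene ERN1), PERK (EIF2AK3) and ATF6 start the unfolded protein response, in which IRE1 splices the XBP1 mRNA and the factor made from the spliced form switches on chaperone and ERAD genes. XBP1 is also known as an estrogen-responsive gene of luminal breast cells. Counts per gene do not tell spliced from unspliced XBP1 mRNA.

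Bulk RNA-seq was made from 2 human cancer lines, Ishikawa (endometrial adenocarcinoma) and T-47D (breast carcinoma). Each line was treated with 10 nM 17β-estradiol (E2), the main natural estrogen, for 2, 4 or 8 h or with vehicle alone (0 h), in 2 replicates each, which gave 16 libraries. Every group, 0 h included, had first been kept in phenol red-free medium with charcoal-stripped serum to remove hormones. The labels do not say whether the replicates were separate cultures, so p-values measure only the spread between these samples, which may be technical. Each tissue is represented by 1 established line, so a difference between the lines cannot be told apart from a difference in culture.

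Ishikawa libraries held 41177912 to 58918642 counts, and those of T-47D 41223813 to 64148903. Genes were tested against 0 h with edgeR's quasi-likelihood F-test within each line, and a gene was called when its Benjamini-Hochberg adjusted p over all genes tested was under 0.05. Levels are CPM, that is counts relative to library size, with library sizes scaled by the trimmed mean of M values (TMM). GREB1, a classical E2 target, was higher at 8 h by 1.65 (SE 0.12) on the log2 scale in Ishikawa cells and by 2.15 (SE 0.050) in T-47D cells. The 6 endometrial epithelial markers examined were each at 1 CPM or more in every Ishikawa library. None was in every T-47D library, where SOX17 and EMX2 were at 0 and the 6 summed to 1.30 to 2.31 CPM. Of 6 luminal breast markers, 5 reached 1 CPM in every T-47D library. In every Ishikawa library 2 did (TRPS1 and PRLR). The luminal markers summed to 6791 to 8094 CPM in T-47D and 49.8 to 61.0 CPM in Ishikawa cells. Of 7 fibroblast markers 2 reached 1 CPM in every library of a line, led by COL1A1, with summed levels of 158 to 287 CPM in Ishikawa and 75.9 to 99.9 CPM in T-47D cells. CD68 was the only immune marker of 5 to reach it in either line, and VWF was the only endothelial marker of 4, in Ishikawa cells. The part of other cells in the results was not tested, and in bulk samples fewer cells of a type and less RNA per cell cannot be told apart.

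Some Ishikawa libraries did not sort by their time labels. The root mean square difference in log2 CPM over 15787 genes was 0.391 between the 4 h replicates and 0.353 between the 8 h replicates, but 0.329 between 4 h replicate 2 and 8 h replicate 1. Over the 34 genes that last pair was also the closest of the late pairs, at 0.074. The labels were kept, and Ishikawa results of the 34 genes are also given with the 4 h and 8 h libraries as 1 group. In addition, Ishikawa 0 h replicate 2 was the lowest of the 8 libraries for 15 of the 34 genes, and T-47D 0 h replicate 2 for 10 of 34. Results of the 34 genes are therefore also given without these libraries where they rest on them.

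XBP1 rose in T-47D cells by 2 h and remained raised at 4 h and 8 h. Its level was 557 and 471 CPM before E2, 1219 and 1255 after 2 h, 1009 and 982 after 4 h, and 1062 and 1071 after 8 h. All 6 libraries with E2 lay above both at 0 h, by more than the gap between the 0 h replicates. The change was 2.40-fold at 2 h (95% interval 2.22 to 2.60, adjusted p = 1.08e-11), 1.94-fold at 4 h (1.79 to 2.09, adjusted p = 4.02e-10) and 2.07-fold at 8 h (1.92 to 2.24, adjusted p = 7.56e-11). At 2 h XBP1 ranked 190th of 15594 genes by log2 fold change and 21st by p. Between 2 h and 8 h it fell to 0.862-fold (adjusted p = 0.0085), a call that DESeq2 did not make (adjusted p = 0.0621) and that was lost without T-47D 2 h replicate 2. No library, left out alone, ended a call of XBP1 against 0 h in T-47D cells, where the log2 fold change ranged from 1.16 to 1.41 at 2 h, from 0.84 to 1.09 at 4 h and from 0.94 to 1.19 at 8 h.

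In Ishikawa cells XBP1 moved by much less. Its level was 128 and 124 CPM before E2, 149 and 147 after 2 h, 146 and 153 after 4 h, and 158 and 141 after 8 h. Every E2 library was above both 0 h libraries, but the 8 h replicates were further apart than 8 h replicate 2 was from the higher 0 h library. XBP1 rose 1.19-fold at 4 h (95% interval 1.08 to 1.30, adjusted p = 0.016) and 1.18-fold at 8 h (1.08 to 1.30, adjusted p = 0.012), and at 2 h its value of 1.17-fold missed the threshold (adjusted p = 0.0521) but passed under DESeq2 (adjusted p = 0.0166). Without Ishikawa 0 h replicate 2 the adjusted p was 0.101 at 4 h and 0.086 at 8 h. The 4 h call was also lost without 4 h replicate 2 (log2 fold change 0.21, adjusted p = 0.087), and the 8 h call without 8 h replicate 1 (0.16, adjusted p = 0.153). XBP1 ranked 2503rd of 15787 genes by log2 fold change at 8 h.

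**Figure D1:**
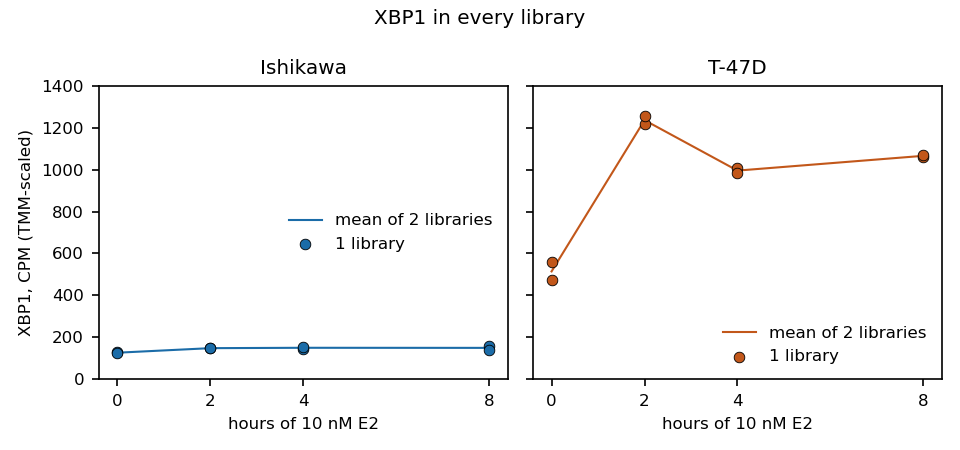
Level of XBP1 in every library, in CPM on TMM-scaled library sizes, against hours of 10 nM E2, with Ishikawa cells on the left and T-47D cells on the right. Points are single libraries and the line joins the means of 2 libraries. In T-47D cells the libraries with E2 lie between 982 and 1255 CPM against 471 and 557 at 0 h, and in Ishikawa cells all 8 libraries lie between 124 and 158 CPM.

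XBP1 lies on chromosome 22, from 29190543 to 29196585 on the minus strand of GRCh37 (hg19), the build of the counts. No exon of another gene named in the count tables overlaps its exons, and genes absent from those tables were not searched. RefSeq promoter sequences (GRCh38.p14, 250 bases before to 50 after the start) were found for 30 of the 34 genes, all except PDIA3, DERL1, DERL3 and SEC24D. They were searched on both strands for the ER stress response element (ERSE), CCAAT and CCACG separated by 9 bases, the element through which ATF6 and XBP1 with NF-Y are known to act on chaperone genes. It occurred in the promoters of 7 of these 30 genes (23.3%) and in 25 of 27305 genes in the whole promoter set (0.0916%). The sites are shown because they are what XBP1 and the main chaperones share in sequence, each in GRCh38.p14, 5′ to 3′ on the strand that carries it, with 6 bases on either side and CCAAT and CCACG in capitals. In order they are XBP1 at chr22:28800603-28800621 (minus strand), HSPA5 at chr9:125241391-125241409 (minus), the HSP90B1 pair at chr12:103930216-103930234 (plus) and chr12:103930321-103930339 (minus), CALR at chr19:12938384-12938402 (minus), CANX at chr5:179698778-179698796 (plus), CRELD2 at chr22:49918554-49918572 (minus) and PDIA6 at chr2:10812853-10812871 (minus).
XBP1: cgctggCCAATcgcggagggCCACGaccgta
HSPA5: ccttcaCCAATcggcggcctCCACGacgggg
HSP90B1, plus strand: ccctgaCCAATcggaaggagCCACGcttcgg
HSP90B1, minus strand: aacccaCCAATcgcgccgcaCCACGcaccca
CALR: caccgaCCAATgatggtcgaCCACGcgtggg
CANX: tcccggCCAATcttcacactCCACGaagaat
CRELD2: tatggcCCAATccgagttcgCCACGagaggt
PDIA6: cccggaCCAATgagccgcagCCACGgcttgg

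The form without the last base (CCAAT and CCAC separated by 9 bases), which includes the full form, occurred in 0.381% of genes and added HERPUD1 among the 30, at chr16:56932059-56932076 on the plus strand. Its site is shown because HERPUD1 had the strongest fall of the list in T-47D cells.
HERPUD1: cctcagCCAATgggcggcagCCACagagcg
The estrogen response element, searched as GGTCA and TGACC separated by 3 bases, occurred in none of the 30 promoters and in 0.0732% of genes, the unfolded protein response element TGACGTGG in that of HYOU1 (0.927% of genes), and the cyclic AMP response element TGACGTCA in those of CREB3L2 and PPP1R15A (2.25% of genes). A match is a run of letters in the window and not a measured site. Enhancers and other sequence outside the window were not searched, nor were inexact forms of the estrogen response element. The lack of a match thus does not bear on whether the estrogen receptor acts on a gene.

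The 6 ERSE genes other than XBP1 did not follow XBP1 in T-47D cells. Their log2 fold changes lay between −0.09 and 0.05 at 2 h, between −0.12 and 0.06 at 4 h and between −0.13 and 0.08 at 8 h, and the only call among them was CALR, lower at 4 h. HSPA5 (BiP), the main Hsp70 of the ER and the usual marker of the response, was at 1699.95 and 1622 CPM before E2, 1710.5 and 1683 after 2 h, 1752 and 1707 after 4 h, and 1653 and 1636 after 8 h. The 2 h and 8 h libraries overlapped those of 0 h and both 4 h libraries lay above them, and the 95% interval of its change was 0.976 to 1.07-fold at 2 h, 0.995 to 1.09-fold at 4 h and 0.946 to 1.04-fold at 8 h. In Ishikawa cells, where XBP1 moved by less, the call among these 6 was HSPA5, higher at 4 h and 8 h.

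In T-47D cells, 2 of the 34 genes were called at 2 h (background 9.3% of 15594 genes), 8 at 4 h (background 21.5%) and 8 at 8 h (background 29.7%). At 2 h 1 was higher (background 4.9%) and 1 lower (background 4.4%), and at 4 h 3 were higher (background 11.1%) and 5 lower (background 10.4%). As shares these were 5.88%, 23.5% and 23.5%, so the list as a whole was called no more often at 2 h and 8 h than genes at large. At 8 h, 2 genes were higher (5.88% against 15.4% of all genes) and 6 lower (17.6% against 14.3%). The median absolute log2 fold change of the list was 0.078, 0.086 and 0.078 at 2, 4 and 8 h, against 0.11, 0.14 and 0.17 over all genes tested. An absolute change includes noise, and the list was measured more precisely. Its median SE was 0.050 at each time, against 0.083, 0.082 and 0.083 over all genes. The part of precision in the smaller absolute change was not tested. The median signed change was 0.03, 0.01 and 0.00, against −0.01, 0.00 and 0.00.

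**Figure D2:**
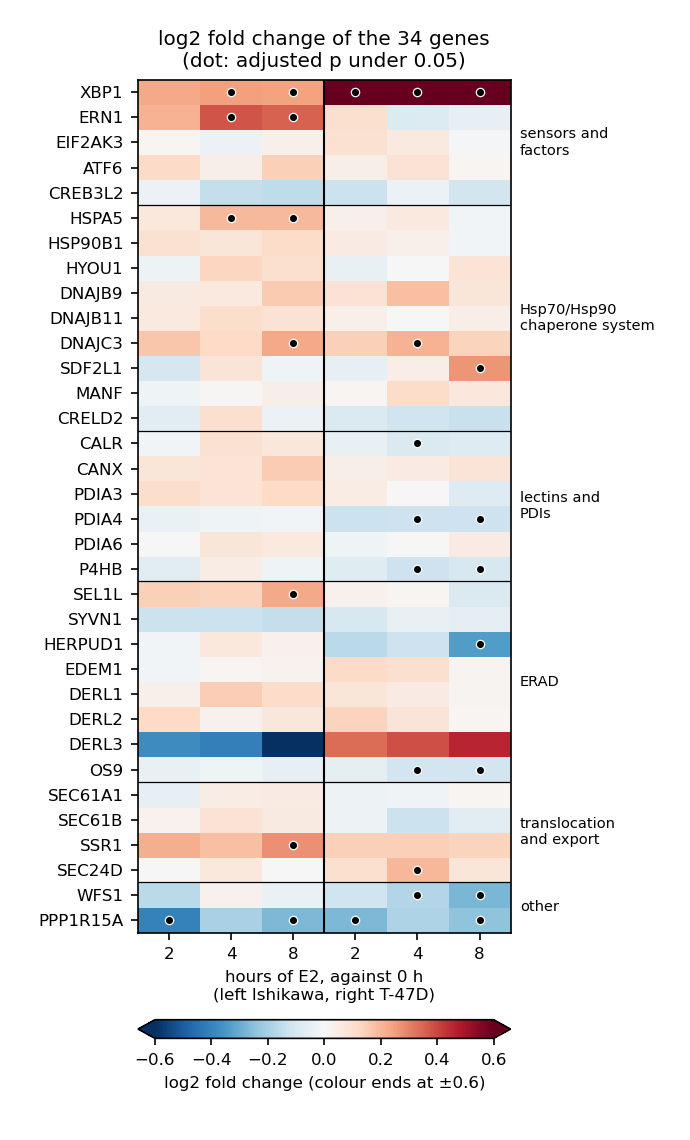
Map of the log2 fold change against 0 h of all 34 genes, with the hours of E2 on the horizontal axis (3 columns for Ishikawa, then 3 for T-47D) and the genes by role on the vertical axis. Red is higher and blue lower than at 0 h, the colour ends at ±0.6, and a dot marks an adjusted p under 0.05. XBP1 in T-47D cells (0.95 to 1.27) runs past the end of the scale, and most other squares are pale. DERL3, the most coloured of the other genes, carries no dot.

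Among the sensors and factors of T-47D cells other than XBP1, none of 4 was called at any time by edgeR or DESeq2, with 1 at an unadjusted p under 0.05 at 2 h, 0 at 4 h and 1 at 8 h. ERN1, which encodes IRE1, had log2 fold changes of 0.10, −0.08 and −0.05 at 2, 4 and 8 h. Over the 3 times EIF2AK3 (PERK), ATF6 and CREB3L2, a membrane-bound factor related to ATF6, stayed between −0.13 and 0.09.

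Of the 9 genes of the Hsp70 and Hsp90 system in T-47D cells, 1 rose at 4 h (background 11.1% higher) and 1 at 8 h (background 15.4% higher). DNAJC3, a J-domain partner of HSPA5, was at 111 and 105 CPM before E2, 119.7 in both libraries after 2 h, 127 and 123 after 4 h, and 111 and 126 after 8 h. It rose 1.16-fold at 4 h (adjusted p = 0.0118; called without a filter also at 2 h and 8 h), and 8 h replicate 1 was back within the 0 h range. SDF2L1, which works with the J-domain protein DNAJB11, was at 20.9 and 20.5 CPM before E2, 18.7 and 21.3 after 2 h, 21.5 and 21.0 after 4 h, and 26.7 and 23.0 after 8 h. It rose 1.20-fold at 8 h (adjusted p = 0.0285), with both 8 h libraries above all 6 others. The other 7, HSPA5, HSP90B1 (GRP94), HYOU1, DNAJB9, DNAJB11, MANF and CRELD2, had no call against 0 h. HYOU1, a nucleotide exchange factor for HSPA5, was higher at 8 h than at 2 h by 0.13 on the log2 scale (adjusted p = 0.0336), at 500.4 and 498 CPM against 566 and 524.

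Of the 6 lectins and disulfide isomerases of T-47D cells, 3 fell at 4 h (background 10.4% lower) and 2 at 8 h (background 14.3% lower), each to 0.916-fold or more of the 0 h level. P4HB, the classical protein disulfide isomerase, was at 1910.4 and 1895 CPM before E2, 1825 and 1797 after 2 h, 1740.3 and 1747 after 4 h, and 1814 and 1749.6 after 8 h. Every E2 library was below both at 0 h, and the change was 0.916-fold at 4 h (adjusted p = 0.00457) and 0.936-fold at 8 h (adjusted p = 0.02). PDIA4, a further disulfide isomerase, was at 239 and 242 CPM at 0 h and between 219 and 223 in the 6 libraries with E2, 0.919-fold at 4 h (adjusted p = 0.0358) and 0.918-fold at 8 h (adjusted p = 0.025). Both calls of PDIA4 were lost in the fit without a filter (adjusted p = 0.0679 and 0.0545), and DESeq2 called it lower at 2 h as well. CALR (calreticulin), a chaperone that binds sugar chains, was at 1902 and 1875 CPM at 0 h against 1769.6 and 1792 at 4 h, 0.943-fold (adjusted p = 0.0497), a call that DESeq2, median-of-ratios (RLE) scaling and the fit without a filter each lost. CANX (calnexin), PDIA3 and PDIA6 had no call against 0 h. PDIA3 was lower at 8 h than at 2 h by 0.12 on the log2 scale (adjusted p = 0.0324), at 795 and 808 CPM against 867 and 878.

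Of the 8 ERAD genes of T-47D cells, 1 fell at 4 h (background 10.4% lower) and 2 at 8 h (background 14.3% lower). HERPUD1, a scaffold of the membrane ligase complex of ERAD and a common marker of the response, was at 60.1 and 58.1 CPM before E2, 53.8 and 51.9 after 2 h, 54.2 and 54.4 after 4 h, and 47.5 and 46.2 after 8 h. All E2 libraries lay below both at 0 h, with those of 8 h lowest. At 8 h it was 0.793-fold (95% interval 0.735 to 0.856, adjusted p = 8.21e-05), and from 2 h to 8 h it fell by 0.17 on the log2 scale (adjusted p = 0.0297). OS9, a lectin that hands misfolded glycoproteins to the ligase, was at 618 and 619 CPM before E2, 596 and 595 after 2 h, 567 and 575 after 4 h, and 580.4 and 562 after 8 h. It was 0.923-fold at 4 h (adjusted p = 0.023) and at 8 h (adjusted p = 0.0178). SEL1L and SYVN1 (HRD1), the core of that ligase complex, EDEM1, which trims sugar chains, and the derlins DERL1, DERL2 and DERL3 had no call against 0 h in edgeR, but DESeq2 and the fit without a filter called SEL1L lower at 8 h than at 2 h. DERL3 was a gene of few counts, with 25 to 62 per T-47D library, and its log2 fold changes of 0.34 to 0.46 had standard errors of 0.33 to 0.34.

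Among translocation and export genes of T-47D cells, 1 of 4 was called, higher at 4 h (background 11.1% higher). SEC24D, a cargo adaptor of the vesicles that leave the ER, was at 38.9 and 39.3 CPM before E2, 42.2 and 41.5 after 2 h, 44.1 and 45.8 after 4 h, and 40.7 and 41.6 after 8 h. It rose 1.15-fold at 4 h (adjusted p = 0.0142). SEC61A1 and SEC61B, parts of the translocation channel, and SSR1, part of the translocon-associated complex, had no call in edgeR, where SSR1 was at 1.10-fold at 8 h (adjusted p = 0.0645). SSR1 was called higher at 4 h and 8 h by DESeq2, and at 2, 4 and 8 h in the edgeR fit without a filter.

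Both remaining genes fell in T-47D cells. WFS1 (wolframin), an ER membrane protein linked to calcium and to control of ATF6, was at 200.4 and 223 CPM before E2, 192 and 199 after 2 h, 185 and 190.5 after 4 h, and 176 and 175 after 8 h. All E2 libraries lay below both at 0 h. The change was 0.886-fold at 4 h (adjusted p = 0.017) and 0.827-fold at 8 h (95% interval 0.769 to 0.89, adjusted p = 0.00039). PPP1R15A (GADD34), the subunit that directs a phosphatase to eIF2α and so reverses the translation block set by PERK, was at 20.3 and 21.0 CPM before E2, 16.6 and 17.6 after 2 h, 18.9 and 17.3 after 4 h, and 17.0 and 17.9 after 8 h. It was 0.829-fold at 2 h (adjusted p = 0.0457, lost under DESeq2 at 0.073 and with a replicate block at 0.0583) and 0.846-fold at 8 h (adjusted p = 0.0313).

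Besides XBP1 against 0 h, the calls of HERPUD1 and WFS1 at 8 h were the T-47D calls that held whichever of the 8 libraries was left out. HERPUD1 then ranged from −0.36 to −0.30 and WFS1 from −0.34 to −0.19 on the log2 scale. Without T-47D 0 h replicate 2, the calls of DNAJC3, SEC24D and WFS1 at 4 h and of SDF2L1 at 8 h were lost, among others, with values of 0.17, 0.21, −0.09 and 0.25. The same calls were lost without 4 h replicate 1 for DNAJC3 and WFS1, without 4 h replicate 2 for SEC24D, and without 0 h replicate 1 or 8 h replicate 1 for SDF2L1, whose range was 0.15 to 0.38. P4HB at 4 h was lost without 4 h replicate 1 (range −0.13 to −0.11). The small falls of CALR, PDIA4 and OS9 at 4 h and of PDIA4, P4HB, OS9 and PPP1R15A at 8 h were each lost in 4 to 7 of the 8 fits that left out a library, as was that of PPP1R15A at 2 h in 6, with no change of sign.

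**Figure D3:**
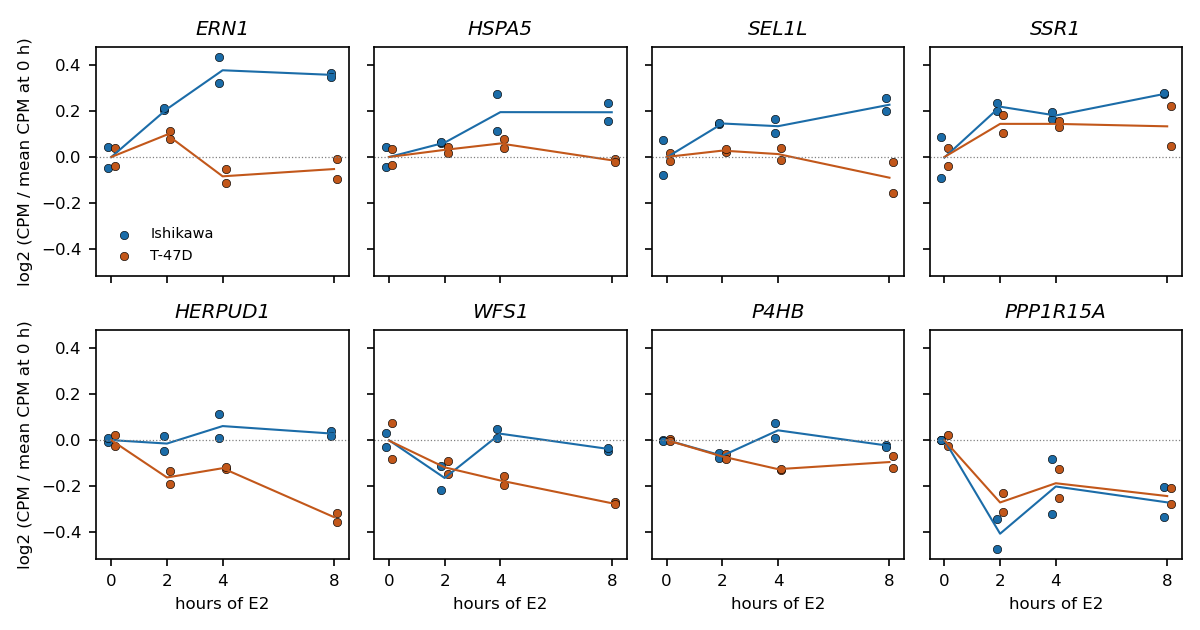
Level of 8 genes in every library as log2 of CPM over the mean CPM at 0 h of the same line, against hours of E2, with Ishikawa in blue and T-47D in orange. Points are single libraries and lines join the means of 2 libraries. ERN1, HSPA5 and SEL1L were called higher at 8 h in Ishikawa (0.36, 0.19 and 0.23) and not in T-47D cells. HERPUD1 and WFS1 were called lower at 8 h in T-47D (−0.33 and −0.27) and not in Ishikawa cells, and PPP1R15A in both. In the direct test between the lines at 8 h, SEL1L and HERPUD1 passed, and ERN1, HSPA5 and WFS1 did not.

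In Ishikawa cells, 1 of the 34 genes was called at 2 h (background 4.35% of 15787 genes, 1.74% lower), 3 at 4 h (background 14.3%) and 7 at 8 h (background 22.1%). As shares of the list these were 2.94%, 8.82% and 20.6%. Calls at 4 h were all in the higher direction (8.82% against 7.66% of all genes), and at 8 h there were 6 higher (17.6% against 12%) and 1 lower (2.94% against 10.1%). The median absolute log2 fold change was 0.063, 0.083 and 0.091 at 2, 4 and 8 h, against 0.12, 0.16 and 0.18 over all genes. Here too the list was measured more precisely, with a median SE of 0.062 at each time against 0.094, 0.095 and 0.094. The median signed change was 0.06 at 8 h against −0.01. Between 2 h and 8 h none of the 34 was called by edgeR (background 2.24%) or by DESeq2, and 1 had an unadjusted p under 0.05.

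ERN1, the sensor whose product splices XBP1, rose in Ishikawa cells. It was at 12.3 and 13.1 CPM before E2, 14.6 and 14.7 after 2 h, 15.9 and 17.2 after 4 h, and 16.4 and 16.2 after 8 h. No E2 library overlapped those at 0 h. The change was 1.30-fold at 4 h (95% interval 1.13 to 1.49, adjusted p = 0.0151) and 1.28-fold at 8 h (1.11 to 1.47, adjusted p = 0.0139). The calls were lost without 4 h replicate 2 (at 4 h) and without either 8 h library (at 8 h), with log2 fold changes from 0.31 to 0.42 over all fits that left out a library. EIF2AK3, ATF6 and CREB3L2 had no call.

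Of the chaperone system in Ishikawa cells, HSPA5 rose at 4 h and 8 h and DNAJC3 at 8 h, and 7 of 9 genes had no call. The background of higher calls was 7.66% at 4 h and 12% at 8 h. HSPA5 was at 685 and 646 CPM before E2, 694 and 695 after 2 h, 805 and 720.4 after 4 h, and 741 and 782 after 8 h. All E2 libraries were above both at 0 h, and the change was 1.15-fold at 4 h (95% interval 1.05 to 1.25, adjusted p = 0.0397) and 1.14-fold at 8 h (1.05 to 1.25, adjusted p = 0.0298). The 4 h call of HSPA5 was lost with a replicate block (adjusted p = 0.0521). DNAJC3 was at 150.3 and 128 CPM before E2, 155 and 158 after 2 h, 150.4 and 152 after 4 h, and 168 and 157 after 8 h, a rise of 1.17-fold at 8 h (adjusted p = 0.0301). Its 0 h replicates were further apart than 0 h replicate 1 was from any E2 library. None of the 6 lectins and disulfide isomerases was called by edgeR at any time in Ishikawa cells, where their log2 fold changes lay between −0.07 and 0.15, although 2 had an unadjusted p under 0.05 at 8 h and CANX was called by DESeq2 and without a filter.

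Of the 8 ERAD genes in Ishikawa cells, SEL1L was called by edgeR, and of the 4 translocation and export genes, SSR1, both higher at 8 h (background 12% higher). DESeq2 and the fit without a filter also called SSR1 higher at 2 h and 4 h, and the fit without a filter called DERL3 lower at 8 h. SEL1L was at 286 and 257 CPM before E2, 299.6 and 301 after 2 h, 292 and 304 after 4 h, and 324 and 312 after 8 h, a rise of 1.17-fold (95% interval 1.07 to 1.28, adjusted p = 0.0135). SSR1 was at 256 and 226 CPM before E2, 277 and 284 after 2 h, 271 and 276 after 4 h, and 292 and 293 after 8 h, a rise of 1.21-fold (1.11 to 1.32, adjusted p = 0.00495). For both genes all E2 libraries were above both at 0 h. HERPUD1 was between 139 and 156 CPM in all 8 Ishikawa libraries, and its change at 8 h was 1.02-fold (adjusted p = 0.771). DERL3 was at 60 to 136 counts per library, with a log2 fold change of −0.64 (SE 0.26) at 8 h that missed the threshold (adjusted p = 0.0891).

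PPP1R15A was the gene of the list called at 2 h in Ishikawa cells, and it fell, as in T-47D cells. It was at 44.1 CPM in both libraries before E2, 34.8 and 31.8 after 2 h, 41.6 and 35.3 after 4 h, and 35.0 and 38.2 after 8 h. All E2 libraries were below those at 0 h. The change was 0.755-fold at 2 h (95% interval 0.665 to 0.857, adjusted p = 0.0108), 0.829-fold at 8 h (adjusted p = 0.0342), and a log2 fold change of −0.20 at 4 h missed the threshold (adjusted p = 0.143). WFS1, lower in T-47D cells, was between 31.3 and 37.6 CPM in Ishikawa cells with no call.

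Without Ishikawa 0 h replicate 2, the library lowest for 15 of the genes, ERN1 was the only one of the 34 called at 4 h (background 6.36%) and at 8 h (background 8.73%), and PPP1R15A lost its call at 2 h. The log2 fold change of SSR1 at 8 h was then 0.19, that of SEL1L 0.15 and that of DNAJC3 0.12. HSPA5 had no call in 4 of the 8 fits that left out a library, nor did DNAJC3, including those without 2 h replicate 1 or 2, and SEL1L also lost its call without 8 h replicate 1. At 2 h PPP1R15A also lost its call without 2 h replicate 2 (range −0.47 to −0.34), and its 8 h call was lost in 5 of 8 fits. With the 4 h and 8 h libraries as 1 group, 7 of 34 genes were called against 0 h (background 25.7%). These were XBP1, ERN1, HSPA5, SEL1L and SSR1, higher, and CREB3L2 and PPP1R15A, lower, while DNAJC3 at 0.17 missed the threshold (adjusted p = 0.0547).

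With the study's terms applied to the edgeR calls, a gene called at 2 h is Early and a gene called only at 4 h or 8 h is Late. The study made its bulk RNA-seq calls with DESeq2 and its single-cell RNA-seq calls with a Wilcoxon test. In the DESeq2 fit made here, XBP1 and SSR1 were also Early and up in Ishikawa cells. PDIA4 of T-47D cells was Early and down in that fit, and their PPP1R15A was not Early. By edgeR, in T-47D cells XBP1 was Early and up, PPP1R15A was Early and down, and 9 genes were Late. The 11 of 34 genes called at any time made up 32.4%, against 34.2% of all genes tested. In Ishikawa cells PPP1R15A was Early and down, 6 genes including XBP1 were Late, all up, and the 7 called at any time made up 20.6% against 24.3%. XBP1, DNAJC3 and PPP1R15A were called in both lines, each in the same direction, and 19 genes were called in neither. The shares of all genes called in both lines and in neither were not computed, so these counts are not read as a trait of the list. Since each contrast within a line shares its 0 h libraries, a gene that passes at more than 1 time is not independent evidence at each. In Ishikawa cells none of the 34 differed between 2 h and 8 h (background 2.24%). Late there thus means only that a gene missed the threshold at 2 h. In T-47D cells, 6 of 34 genes differed between 2 h and 8 h (background 16.8%). XBP1, HERPUD1, WFS1 and PDIA3 were lower at 8 h than at 2 h (background 7.23%), and SDF2L1 and HYOU1 were higher (background 9.53%). Each of these 6 calls was lost in 1 to 5 of the 8 fits that left out a library, HYOU1 most often (range 0.06 to 0.18) and XBP1 least (range −0.24 to −0.20).

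The difference between the lines was tested directly as the interaction of line and time over all 16 libraries, T-47D minus Ishikawa. At 2 h, 1 of 34 genes differed (background 2.67% of 17090 genes), at 4 h 2 (background 6.03%) and at 8 h 3 (background 10%). XBP1 differed at each time, by 1.05 (SE 0.092, adjusted p = 2.2e-07) at 2 h, 0.72 (SE 0.092, adjusted p = 2.55e-05) at 4 h and 0.80 (SE 0.092, adjusted p = 4.2e-06) at 8 h on the log2 scale. HERPUD1 differed at 8 h by −0.36 (SE 0.075, adjusted p = 0.00275), being lower with E2 in T-47D cells and at 1.02-fold in Ishikawa cells. SEL1L differed at 8 h by −0.32 (SE 0.077, adjusted p = 0.0104), with 1.17-fold in Ishikawa cells and 0.940-fold in T-47D cells. ERN1 differed at 4 h by −0.45 (SE 0.13, adjusted p = 0.0457), a call lost with a replicate block (adjusted p = 0.0598) and without a filter (adjusted p = 0.0755), and at 8 h its difference of −0.41 was just past the threshold (adjusted p = 0.0507).

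At 8 h, 26 of the 34 differences were negative and 8 positive, with a median of −0.07 against 0.02 over all genes tested. How many differences were negative over all genes was not computed, and all of the 34 rest on the same 0 h libraries. Without Ishikawa 0 h replicate 2, 7 of the 31 uncalled differences changed sign. Among the 15 chaperones and folding enzymes none passed in edgeR, 5 had an unadjusted p under 0.05, and DESeq2 called 4 (HSPA5, HSP90B1, CALR and PDIA3). HSPA5 was at −0.21 (95% interval −0.36 to −0.06, adjusted p = 0.0771), PDIA3 at −0.20 (adjusted p = 0.0596) and WFS1, outside that group, at −0.24 (adjusted p = 0.0783). These values lay close enough to the threshold that the count at 8 h depended on the fit. It was 7 under RLE scaling (background 10.2% of 17090 genes) and 9 under DESeq2 (background 9% of 22220 genes). Both added ERN1, HSPA5, PDIA3 and WFS1. XBP1 at all times and HERPUD1 at 8 h kept their calls in all 16 fits that left out a library. SEL1L lost its call without Ishikawa 0 h replicate 2 or T-47D 8 h replicate 1, with values of −0.43 to −0.24 over the 16 fits, and ERN1 at 4 h lost it in 13 of 16, with values of −0.52 to −0.41.

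**Figure D4:**
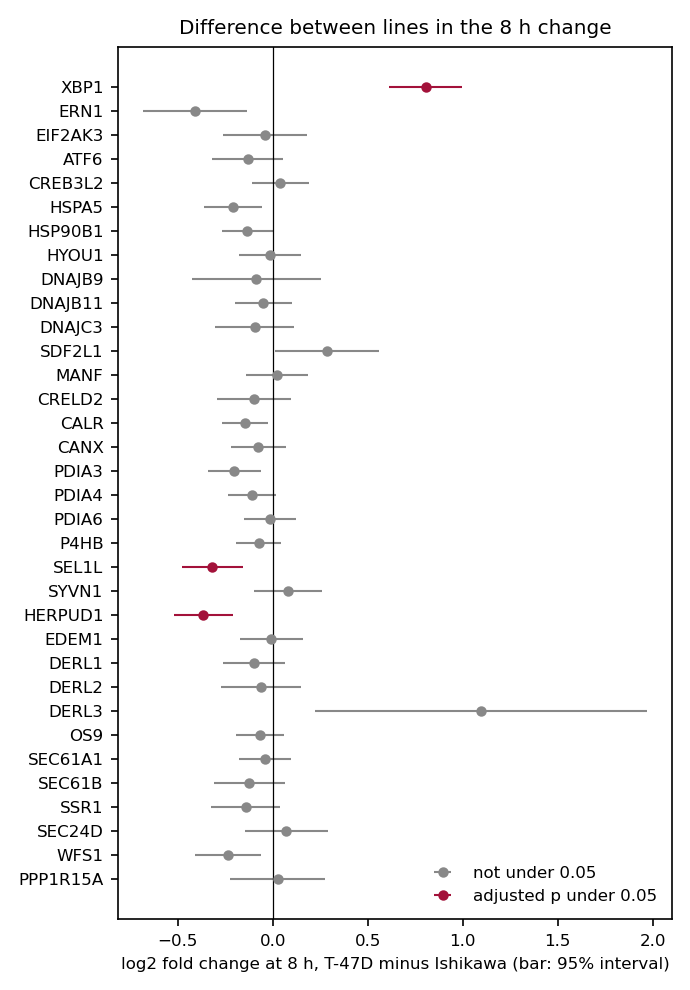
Difference between the lines in the log2 fold change at 8 h against 0 h, T-47D minus Ishikawa, for each of the 34 genes, with 95% intervals as bars. XBP1 (0.80), SEL1L (−0.32) and HERPUD1 (−0.36), in red, passed an adjusted p of 0.05. DERL3 has the widest interval, from 0.22 to 1.97.

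The lines also differed in these genes before E2. With CPM scaled over all 16 libraries, 29 of the 34 genes differed between T-47D and Ishikawa cells at 0 h (background 81.9% of 17090 genes), 16 higher in T-47D cells (background 39.5%) and 13 lower (background 42.4%). WFS1 was at 206 and 228 CPM in T-47D against 34.9 and 36.2 in Ishikawa cells, a 6.10-fold difference (adjusted p = 4.15e-19). XBP1 was at 572 and 481 against 126 and 120.3 CPM, 4.28-fold (adjusted p = 8.95e-17). HSPA5 was at 1745 and 1655 against 672 and 628 CPM, 2.62-fold (adjusted p = 1.46e-15). The level of XBP1 before E2 in T-47D cells was thus above its level in Ishikawa cells after E2. SYVN1, P4HB and SEL1L were also higher in T-47D cells, by 0.96, 0.90 and 0.90 on the log2 scale.

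In the other direction, PDIA6, a disulfide isomerase that also binds IRE1, was at 110.4 and 111 CPM in T-47D against 304 and 305 in Ishikawa cells, 0.364-fold (adjusted p = 1.08e-16). HERPUD1 was at 61.7 and 59.3 against 140.0 and 141 CPM, 0.431-fold (adjusted p = 1.59e-14). PPP1R15A was at 20.8 and 21.4 against 43.2 and 42.9 CPM, 0.490-fold (adjusted p = 6.01e-10), and CRELD2 was 0.546-fold (adjusted p = 1.54e-10). DERL3, at 0.647 and 0.619 against 1.89 and 2.84 CPM, was 0.268-fold (adjusted p = 6.75e-06). Genes of 1 role thus differed in both directions, with 4 of the 6 lectins and disulfide isomerases higher in T-47D cells and 2 lower. EIF2AK3, DNAJB11, SDF2L1, DERL2 and SEC61A1 were not called.

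**Figure D5:**
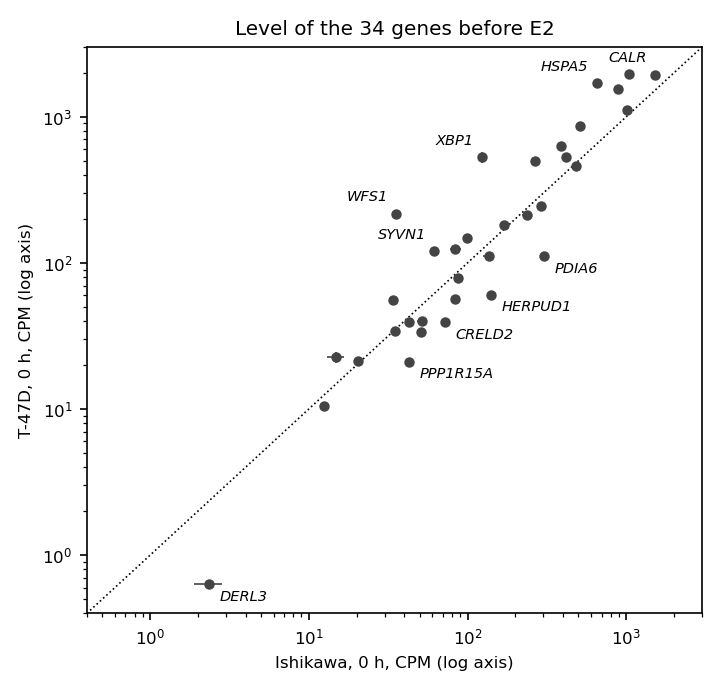
Mean level of each of the 34 genes at 0 h in T-47D cells against Ishikawa cells, in CPM scaled over all 16 libraries, on log axes. Points are means of 2 libraries, bars their range, and the dotted line marks equal levels. WFS1 (217 against 35.5 CPM) and XBP1 (527 against 123) lie furthest above the line and DERL3, PDIA6 (111 against 304) and HERPUD1 (60.5 against 140.5) furthest below it.

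Per kilobase of the main transcript, CALR had the highest level of the list at 0 h in both lines, with 814 CPM per kb in Ishikawa and 994 in T-47D cells, followed by P4HB (437 and 781) and HSP90B1 (326 and 540). XBP1 ranked 5 of 34 in T-47D cells (287 CPM per kb) and 15 of 34 in Ishikawa cells (70.3). The sensors were low in both lines, with ERN1 at 1.61 CPM per kb in Ishikawa and 1.30 in T-47D cells and EIF2AK3 at 7.90 and 7.34. HSPA5 was at 170 CPM per kb in Ishikawa and 424 in T-47D cells.

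Other genes of the pathway were examined from lists of 111 genes, of which all passed the filter in T-47D cells and 110 did in Ishikawa cells. In Ishikawa cells 2 were called at 2 h (1.82%, background 4.35%), 10 at 4 h (9.09%, background 14.3%) and 29 at 8 h. In T-47D cells 6 were called at 2 h (5.41%, background 9.3%), 19 at 4 h (17.1%, background 21.5%) and 26 at 8 h. At 8 h these were 26.4% in Ishikawa cells (background 22.1%) and 23.4% in T-47D cells (background 29.7%). Of the 110 genes in Ishikawa cells, 27 were higher (background 12%) and 2 lower (background 10.1%) at 8 h. Of the 111 in T-47D cells, 17 were higher (background 15.4%) and 9 lower (background 14.3%). These lists were examined in the main fit only.

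In Ishikawa cells the translocation and export list had the most calls at 8 h, with 12 of 32 higher (background 12% of all genes) and 1 lower (background 10.1%), and a median log2 fold change of 0.14. SPCS3, a subunit of signal peptidase, was at 119 and 96.5 CPM at 0 h against 146 and 147 at 8 h, a rise of 0.44 on the log2 scale (adjusted p = 0.00156), and ARFGAP3 fell by 0.68 (adjusted p = 0.0215). Of 31 folding genes 9 were higher, against the same background, led by QSOX1, a sulfhydryl oxidase, at 253 and 255 CPM at 0 h against 420.1 and 481 at 8 h, a rise of 0.83 (adjusted p = 3.12e-06). EDEM3, of the ERAD list (4 of 20 higher), rose by 0.40 (adjusted p = 0.000935), and LMAN1, a cargo receptor of the glycosylation list (2 of 16 higher), by 0.23 (adjusted p = 0.016). CREB3L4 was the 1 factor of 11 called and fell by 0.59 (adjusted p = 0.00637). Like SPCS3, EDEM3 and LMAN1 were lower in 0 h replicate 2 than in 0 h replicate 1 (70.1 against 81.9 and 142 against 158 CPM). QSOX1, ARFGAP3 and CREB3L4 were not. Fits without that library, or with the 4 h and 8 h libraries as 1 group, were not read for these lists. How far these calls rest on that library was not tested.

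In T-47D cells 4 of the 12 other factors fell at 8 h (background 14.3%) and 1 rose (background 15.4%). The 4 were DDIT3 (CHOP) and TRIB3, which act late in the PERK branch, CREB3L4, and NFYB, a subunit of the NF-Y factor that binds CCAAT. NFYB was at 68.2 and 69.4 CPM at 0 h against 48.9 and 52.5 at 8 h, and fell by 0.44 on the log2 scale (adjusted p = 4.13e-06). MBTPS2, a protease that cuts ATF6, rose by 0.20 (adjusted p = 0.00666). Of 31 folding genes 5 rose, led by HSPA13 (0.62, adjusted p = 2.9e-06), and 3 fell, led by FKBP2 (−0.25, adjusted p = 0.00947). SRPRB, a subunit of the signal recognition particle receptor, rose by 0.41 (adjusted p = 2.32e-06), as 1 of 6 higher and 0 lower among 32. In the glycosylation list OSTC rose by 0.17 (adjusted p = 0.047) and MOGS fell by 0.16 (adjusted p = 0.0166).

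Some counts may be shared with other genes. Whether the counting used strand is not given in the sources used here, and exons of 12 of the 34 genes overlap exons on the opposite strand, among them CANX, CRELD2, HSP90B1, OS9, PDIA3, PDIA6 and DERL3, so part of their counts could belong to the neighbour. SSR1, SYVN1, OS9 and HSP90B1 overlap exons of a gene on their own strand (CAGE1, FAU, AGAP2-AS1 and MIR3652). Near-identical copies carried 1062 to 3083 counts per library for PDIA3P1, a copy of PDIA3, and 13 to 42 for HSP90B2P, a copy of HSP90B1. XBP1, ERN1, HSPA5, HERPUD1, WFS1, SEL1L and PPP1R15A had no such exon overlap. Overlaps were sought only with genes named in the count tables.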

How the data were processed

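The labels and the study's methods give 8 poly(A), directional RNA-seq libraries per line. Reads had been aligned by the authors to hg19 (HISAT2) and summarised by gene (featureCounts), and the deposited tables, 1 per line, hold these raw counts. Versions, strand setting and treatment of multiply aligned reads are not given in the sources used here. Tests used edgeR 4.0.16 in R 4.3.3 (filterByExpr, TMM, time point as a factor with 4 levels, no block, quasi-likelihood F-test, Benjamini-Hochberg over all genes tested), which left 15787 genes in Ishikawa, 15594 in T-47D and 17090 in the joint fit. The biological coefficient of variation was 6.45% and 5.02%. Replicates differed by more than sampling noise (chi-square per gene 3.68 to 11.2). Standard errors are the log2 fold change over the square root of F. Alternatives were DESeq2 1.42.0, RLE scaling, no filter, a replicate block, Ishikawa 4 h and 8 h libraries as 1 group, and leaving out each library. Backgrounds of DESeq2 and of the fit without a filter are shares of 20903 genes in Ishikawa, 20700 in T-47D and 22220 in the joint fit. Genes to which DESeq2 gave no adjusted p count as not called. These backgrounds are therefore not on the same footing as those over filtered genes. The fit was tested on simulated counts. Positions and transcript lengths came from GENCODE on GRCh37. The 34 genes and all lists were chosen with earlier results of these data known. All 34 are accounted for by role, values per library are given for XBP1 and called genes, and of the other pathway genes the called gene with the largest change per list, direction and line at 8 h is named, except for 1 that is not reported here. DDIT3, TRIB3 and CREB3L4 in T-47D cells were named after their values were seen. Total counts set the precision of a level, and genes of few counts such as DERL3 have wide intervals.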

Additional observations from a re-analysis of the deposited data

Results flagged for a closer look

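The change with E2 differed between the lines, by edgeR's interaction of line and time point, in 6 cases among the 34 genes. Values are the log2 fold change in T-47D cells minus that in Ishikawa cells. The sign gives the direction of this difference and not which line changed more. That of XBP1 was 1.053 at 2 h, 0.7186 at the 4 h time point and 0.8048 after 8 h. HERPUD1 differed by −0.365 at 8 h and SEL1L by −0.3183 at 8 h. ERN1 differed by −0.4484 at 4 h. With 2 samples per group, single samples were not examined for distance from the rest of their group. The part of line and of culture in these differences cannot be told apart.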

How the results depend on the processing

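With DESeq2, 3 of the 34 genes were called at 2 h in Ishikawa cells (background 3.92%), where XBP1 passed at 0.23. Between the lines, 4 differed at 4 h (background 5.64%) and 9 at 8 h (background 9%). RLE scaling gave 7 at 8 h between the lines (background 10.2%). With no filter there were 3 calls at 2 h in Ishikawa cells (background 5.56%), where XBP1 passed at 0.22. T-47D cells then had 4 calls at 2 h (background 9.43%). Differences between the lines without a filter numbered 1 at 4 h (background 6.64%) and 6 at 8 h (background 9.95%). With the Ishikawa 4 h and 8 h libraries as 1 group, 7 genes were called at 4 h (background 25.7%). Between the lines 5 then differed at 8 h (background 10.7%). Replicate numbers did not pair the samples (correlations of deviations −0.115 to 0.0533 in Ishikawa, −0.0547 to 0.0595 in T-47D). A replicate block gave 1 call at 2 h in T-47D cells (background 8.49%). Between the lines it gave 1 difference at 4 h (background 5.47%), and SSR1, ERN1 and CANX lost their 0 h calls.

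Leaving out each library in turn, calls ranged from 0 to 6, 1 to 7 and 1 to 13 at 2, 4 and 8 h in Ishikawa, were 0 between 8 h and 2 h, and ranged from 1 to 5, 2 to 9 and 4 to 11 in T-47D cells, with 1 to 7 between 8 h and 2 h. Differences between the lines ranged from 1 to 1, 1 to 4, 2 to 9 and, before E2, 26 to 29. XBP1 in Ishikawa cells ranged from 0.20 to 0.26 at 2 h, 0.21 to 0.28 at 4 h and 0.16 to 0.32 at 8 h. Its uncalled change of 0.01 between 2 h and 8 h turned to −0.065 without 8 h replicate 1, within a range of −0.065 to 0.10. The share of all genes called moved with the library left out as well, and the cause of these shifts was not tested. Over the alternatives that kept all libraries, 282 single-gene values kept direction and side of the threshold, 19 lost and 2 gained their call, and none reversed. Of the values with a library left out, 717 kept both, 135 lost and 3 gained a call and 1 reversed. A fit that leaves a time point with 1 library assumes that it varies like the other groups. Each time point rests on 2 libraries, so small changes near the threshold are the least secure.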
